A study of Homo sapiens with 2 samples.

Results

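The genes described here encode 9 proteins that neutrophils store in their granules: MPO, ELANE, PRTN3, AZU1, CTSG, CFD, LYZ, LTF and CAMP. They were taken from the annotation by their symbols and are 9 of the 19819 protein-coding genes of the annotation. Their DNA methylation was read in 2 bisulfite capture (MCC-Seq) libraries, 1 of SKNO-1 and 1 of SKNO1-siAE. SKNO-1 is an acute myeloid leukemia cell line that carries the RUNX1-RUNX1T1 (AML1-ETO) fusion gene. SKNO1-siAE was made from SKNO-1 with the lentiviral vector pRRLcPPT.hPGK, which carries the siAGF1 oligonucleotides against the junction of the fusion mRNA. No drug treatment is given for these libraries, and both lines were grown in RPMI 1640 with fetal calf serum, penicillin and streptomycin. The authors also describe MCC-Seq of cells treated with decitabine, and the titles of the 2 libraries used here name no treatment. No library of SKNO-1 with a control vector was analysed here, so the silencing, the vector and the separate culture of the lines cannot be told apart. The files hold methylation and no expression, so neither the silencing of the fusion nor the transcripts of the granule genes could be checked.

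Granule proteins are made in stages as a myeloid precursor matures. The proteins of the primary (azurophil) granules, among them myeloperoxidase and the serine proteases, are made in promyelocytes, and those of the secondary granules, among them lactoferrin and the cathelicidin precursor, are made later. RUNX1 takes part in this program, and the fusion protein binds many of the sites that RUNX1 binds. Methylation of cytosines in CpG dinucleotides near a start is commonly low in cells that use that start, and both strands of a CpG normally carry the same state.

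For each CpG cytosine and strand, here called a site, the files give the number of methylated reads, in which bisulfite left the cytosine as it was, and of unmethylated reads, in which it was converted. The level of a site is the methylated share of its reads, from 0 to 1. The values below rest on the 3168726 sites that both libraries covered with 5 or more reads, called shared sites, and in the median these had 16 reads in the SKNO-1 library and 15 in the other. With 1 library per line there was no replicate, and every test below compares the reads of 2 libraries, not 2 conditions. Pooled reads are given with 95% Wilson confidence intervals, which cover counting error only and are too narrow where neighbouring sites lie on the same reads. Where a highest level that the reads allow is given for a stretch with no methylated read, it is 3 reads of the total. Over all shared sites SKNO-1 had the lower mean level, 0.587 against 0.655, so a gene with more methylation in SKNO-1 goes against the genome-wide difference.

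The window of a gene ran from 1500 bp upstream of its transcript start to its end. All 9 windows held at least 5 shared sites, 596 in all, from 5 in LYZ to 141 in MPO. In the 1500 bp upstream of the start, LYZ had no shared site and MPO had 3, and the other 7 genes had 5 or more.

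The granule genes covered nearly the whole range of methylation in both libraries. In SKNO-1 the pooled level was 0.914 in LYZ (interval 0.856 to 0.950), 0.883 in LTF (0.863 to 0.900), 0.836 in CTSG (0.808 to 0.860) and 0.683 in CFD (0.663 to 0.703). It was 0.605 in CAMP (0.557 to 0.652), 0.597 in ELANE (0.560 to 0.633) and 0.557 in PRTN3 (0.526 to 0.587). MPO at 0.115 (0.101 to 0.131) and AZU1 at 0.0370 (0.0159 to 0.0838) were the lowest at shared sites. The AZU1 value rests on 13 of the 382 CpG cytosines of its window, 12 of them just before the start, and at the 17 other sites that SKNO-1 alone covered 113 of 155 reads were methylated. The interval of LYZ overlapped those of LTF and CTSG, so LYZ has no order against either, and the intervals of CAMP, ELANE and PRTN3 overlapped each other, so these 3 have no order. In SKNO1-siAE the levels were LTF at 0.884, CFD at 0.850, CAMP at 0.728, ELANE at 0.656, LYZ at 0.608, CTSG at 0.581, PRTN3 at 0.255, MPO at 0.175 and AZU1 at 0, from 0 of 217 reads, which allows a level of up to 1.38%. There the intervals overlapped between LTF and CFD, between ELANE and each of CAMP, LYZ and CTSG, and between LYZ and each of CAMP and CTSG. At shared sites MPO and AZU1 were the least methylated of the genes in both libraries, and LTF was high in both.

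**Figure D1:**
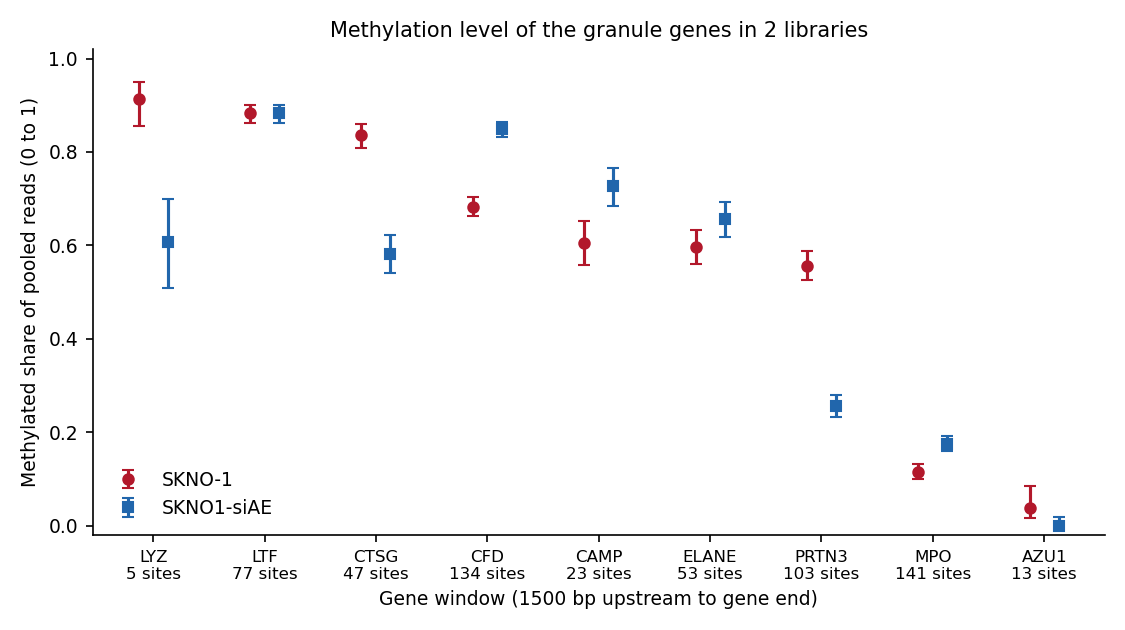
Methylated share of the pooled reads (0 to 1) in the window of each granule gene, with the number of shared sites under each name. Red circles are SKNO-1, blue squares SKNO1-siAE, and bars are 95% Wilson intervals. The bars of the 2 libraries overlap in LTF, ELANE and AZU1. PRTN3 stands at 0.557 in SKNO-1 and 0.255 in SKNO1-siAE.

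Averaged over sites, 2 of the 9 windows were more methylated in SKNO-1 by at least 0.2, against 1.79% of the 18981 protein-coding windows with 5 or more shared sites. None of the 9 was lower by 0.2, against 11.7% of all windows. PRTN3 had mean levels of 0.558 in SKNO-1 and 0.206 in SKNO1-siAE, a difference that 132 of all windows reached (0.352). LYZ had 0.911 and 0.619, a difference of 0.292 over 5 sites. Below 0.2 came ELANE with a difference of 0.148, CTSG with 0.110, AZU1 with 0.0296 and LTF with 0.0129. The difference was negative in MPO at -0.0547, in CAMP at -0.0655 and in CFD at -0.198. The median of the 9 differences was 0.0296, against -0.0193 over all windows. In the interval upstream of the start, 3 of the 7 genes with 5 or more sites (ELANE, PRTN3 and CTSG) had a level 0.2 or more higher in SKNO-1, against 3.80% of all 17229 such intervals, and 1 (CFD) was lower, against 15.0%. The side of the 0.2 limit depended on the processing in several genes: with at least 10 reads per site the ELANE window gave -0.442, CTSG 0.219, the PRTN3 upstream interval 0.156 and that of LTF 0.223. With all sites of each library AZU1 gave 0.329 and the CFD upstream interval -0.0563, so that no upstream interval was lower by 0.2, and with the window ended at the main transcript CFD gave -0.272.

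**Figure D2:**
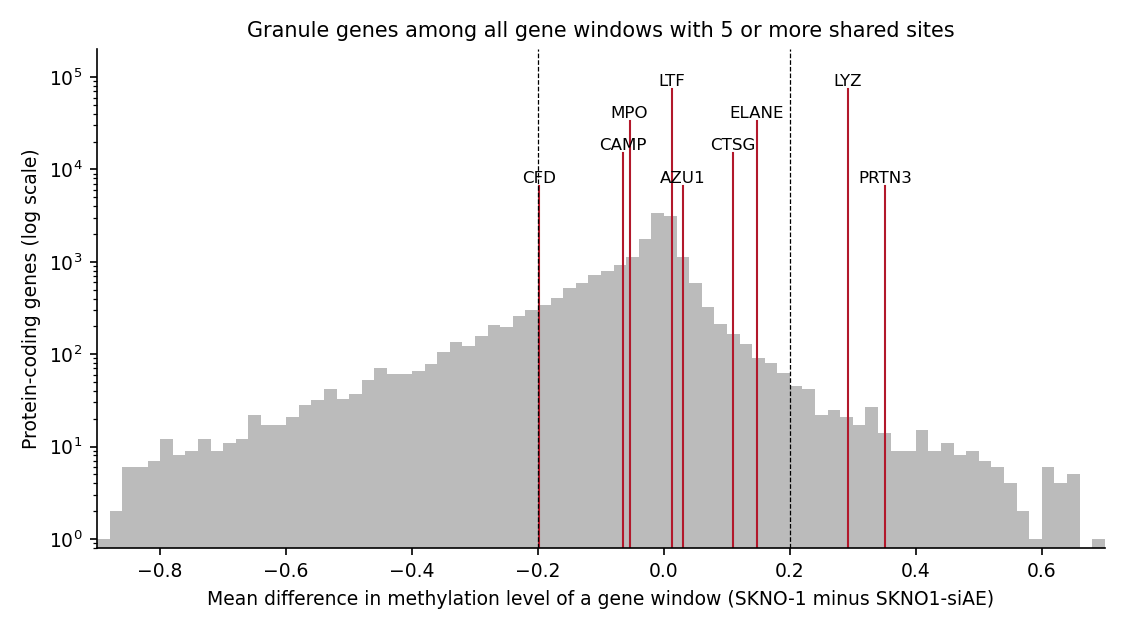
Mean difference in level (SKNO-1 minus SKNO1-siAE) over the shared sites of a gene window, counted over the 18981 protein-coding genes on a log axis. Red lines mark the 9 granule genes and dashed lines a difference of 0.2 in either direction. PRTN3 and LYZ lie beyond 0.2, and CFD lies at -0.198, just inside the line.

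Single sites were compared with a 2-sided Fisher's exact test on the reads, adjusted by the Benjamini-Hochberg method over all 3168726 sites, and a site counted as called if its adjusted p was below 0.05 and its levels differed by 0.2 or more. Of the 596 sites in the granule genes, 59 (9.90%) were called higher in SKNO-1, against 4.40% of all sites, and 49 (8.22%) lower, against 11.7%. This balance depended on the minimum of reads: when 10 reads were required in each library, 244 sites were left, of which 18 (7.38%) were called higher and 35 (14.3%) lower, against 5.35% and 13.6% of all such sites. With the minimum of 5 reads, the higher sites lay in PRTN3 (30), ELANE (16), CTSG (8), LYZ (2), LTF (2) and CAMP (1). The lower sites lay in CFD (22), ELANE (13), MPO (10), LTF (2) and CAMP (2), and no site of AZU1 was called.

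The sites were also split by their distance from the start, a split chosen after the values were seen. Of the 193 sites between 1500 bp before and 1000 bp after a start, 38 were called higher in SKNO-1 and 2 lower, and the mean level was 0.600 in SKNO-1 against 0.408. Of the 403 sites farther into the genes, 21 were higher and 47 lower, and the mean level was 0.539 in SKNO-1 against 0.590. Over all protein-coding genes, 3.78% of the near sites were called higher and 10.1% lower, and 4.60% and 10.6% of the far sites. The mean difference over these sites was -0.0593 near and -0.0557 far. The genes differed in this. Of the 38 near sites called higher, 15 were in ELANE, 10 in PRTN3 and 8 in CTSG, and of the 47 far sites called lower, 21 were in CFD, 13 in ELANE and 9 in MPO. None of the 15 in ELANE had 10 reads in both libraries, and the split was made with the minimum of 5 reads alone. The mean difference was positive at near and negative at far sites in 5 of the 8 genes with both kinds of site: 0.782 and -0.303 in ELANE, 0.463 and -0.0403 in CTSG, 0.776 and -0.0300 in LYZ, 0.0296 and -0.114 in LTF, and 0.0516 and -0.333 in CAMP. The far values of CTSG and LYZ, the latter over 3 sites, were smaller in size than the -0.0557 of all genes. How many of all genes change sign in this way was not counted. Sites were called both higher near and lower far from the start in ELANE, LTF and CAMP, with at most 2 in each direction in the last 2. PRTN3 was higher in SKNO-1 at both, by 0.341 and 0.357, and MPO (-0.130 and -0.0519) and CFD (-0.0752 and -0.221) were lower at both.

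AZU1, PRTN3, ELANE and CFD stand side by side on chromosome 19, at chr19:826337-867884 (hg19) with their upstream intervals. All 4 are transcribed from the plus strand and belong to the family of trypsin-like serine proteases. The 356 shared sites of this stretch had mean levels of 0.645 in SKNO-1 and 0.537 in SKNO1-siAE. The difference changed sign within it: it was 0.361 over the 48 sites between AZU1 and PRTN3 and 0.644 over the 5 sites between PRTN3 and ELANE, and it turned negative within the last exon of ELANE. No shared site lay between ELANE and CFD. In the 50 kb before the stretch the difference was 0.159 over 333 sites, and in the 50 kb after it -0.0440 over 389 sites.

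AZU1 encodes azurocidin, a protease homologue without enzymatic activity that kills bacteria. Of its 13 shared sites, 12 lie in the 250 bp before the start, which are printed because they were almost free of methylation in both libraries. The plus strand of hg19 is given, and in this and all later sequences capitals mark CpGs that had 5 or more reads in both libraries on at least 1 strand.
AZU1 upstream, chr19:827587-827836: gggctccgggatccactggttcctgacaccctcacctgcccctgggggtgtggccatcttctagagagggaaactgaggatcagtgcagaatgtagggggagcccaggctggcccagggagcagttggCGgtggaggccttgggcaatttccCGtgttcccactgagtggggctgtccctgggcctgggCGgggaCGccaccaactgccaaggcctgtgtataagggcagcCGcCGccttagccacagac

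In SKNO-1, 5 of 130 reads in this stretch were methylated, all at 1 site 54 bp before the start on the minus strand (5 of 13 reads, against 0 of 13 in SKNO1-siAE), and the plus strand of this CpG had 0 of 9. That site was not called, with an adjusted p of 0.181 by the exact test. In SKNO1-siAE 0 of 207 reads were methylated, which allows a level of up to 1.45%.

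PRTN3 encodes proteinase 3, a serine protease of the azurophil granules and the target of autoantibodies in granulomatosis with polyangiitis. It had the largest window difference of the 9 genes when averaged over shared sites. LYZ was ahead with pooled reads (0.306 against 0.302), with the strands of a CpG merged (0.410 against 0.386), with all sites of each library (0.410 against 0.308) and with at least 10 reads (0.292 against 0.211). With at least 10 reads CTSG (0.219) was ahead as well and ELANE differed most in size (-0.442), and with all sites of each library ELANE (0.384) and AZU1 (0.329) were also ahead. Over its 103 sites the level was 0.558 ± 0.415 in SKNO-1 and 0.206 ± 0.353 in SKNO1-siAE (SD over sites). Of these sites, 71 were below 0.1 in SKNO1-siAE and 28 in SKNO-1. The 250 bp before the start are printed because they had almost no methylation in either library, while the DNA just upstream differed.
PRTN3 upstream, chr19:840749-840998: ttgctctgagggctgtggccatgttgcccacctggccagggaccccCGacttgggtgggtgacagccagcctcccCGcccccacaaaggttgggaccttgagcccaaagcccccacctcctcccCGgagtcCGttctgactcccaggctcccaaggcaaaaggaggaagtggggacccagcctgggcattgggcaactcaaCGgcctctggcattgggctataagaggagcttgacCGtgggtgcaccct

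The 11 sites of this sequence held 4 methylated of 153 reads in SKNO-1 and 0 of 124 in SKNO1-siAE, which allows up to 2.42%. From 580 to 203 bp before the start, 17 sites had mean levels of 0.603 in SKNO-1 and 0.0186 in SKNO1-siAE, and 10 of them were called higher. Within that stretch the levels of SKNO-1 were uneven: the site 455 bp before the start was methylated in 25 of 25 reads against 0 of 6 (adjusted p = 2.79e-05, exact test), and the site at 338 bp in 0 of 6 against 0 of 5.

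At the shared sites of exon 1, intron 1 and exon 3, SKNO1-siAE was at 0, and exon 2 and intron 2 had no shared site. In exon 3 0 of 222 reads were methylated, which allows up to 1.35%. SKNO-1 carried methylation there. In intron 1, 9 sites had mean levels of 0.476 in SKNO-1 and 0 in SKNO1-siAE, from 0 of 130 reads, which allows up to 2.31%. Exon 3 had 0.253 against 0 over 20 sites, and the 9 sites across its end into intron 3 had 0.731 against 0. In these parts SKNO-1 was partly methylated, and 6 of the 9 sites of intron 1 repeated 4 of 7 reads, so neighbouring sites may share the same reads. The site with the smallest adjusted p was 3018 bp past the start, in exon 3, with 13 of 15 reads methylated against 0 of 18 on the minus strand (adjusted p = 4.78e-06, exact test), while the plus strand of this CpG had 0 of 8 and 0 of 6. Further on, intron 3 had 0.904 against 0.528 and exon 5 had 0.982 against 0.145. All 11 sites of exon 5 were on the plus strand with 5 reads each in SKNO-1, and 4 were called higher. Its neighbouring sites may therefore share the same reads. Exon 4, between intron 3 and exon 5, had 0.666 against 0.901 over 8 sites, with none called in either direction. The site of the gene with the most negative difference lay in exon 4, with 0 of 7 reads against 6 of 17.

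ELANE encodes neutrophil elastase, a protease whose mutations cause severe congenital neutropenia. Its window joined blocks of opposite direction, so the mean over its 53 sites (0.718 ± 0.354 against 0.571 ± 0.468, SD over sites) describes neither. The 5′ block had 2 groups of sites, printed because every one of their sites had a higher level in SKNO-1.
ELANE upstream, chr19:851535-851673: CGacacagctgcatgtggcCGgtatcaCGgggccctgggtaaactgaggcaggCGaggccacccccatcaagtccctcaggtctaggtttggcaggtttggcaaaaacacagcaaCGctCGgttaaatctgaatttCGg
ELANE intron 1 and exon 2, chr19:852856-852929: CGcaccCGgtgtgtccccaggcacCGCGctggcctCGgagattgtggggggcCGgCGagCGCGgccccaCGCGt

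The 11 sites of the upstream group lay 767 to 631 bp before the start, with mean levels of 0.824 ± 0.254 in SKNO-1 and 0.141 ± 0.249 in SKNO1-siAE, and 8 were called higher. Both strands showed it, with 0.792 against 0.187 on the plus strand and 0.843 against 0.114 on the minus strand. In the second group, at the end of intron 1 and in exon 2, SKNO-1 had 89 of 103 reads methylated and SKNO1-siAE 0 of 55, which allows up to 5.45%. All of its 11 sites were on the minus strand with 5 reads each in SKNO1-siAE, so its neighbouring sites may share the same reads, and 7 sites were called.

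The 6 shared sites of intron 3, which has 73 CpGs, were fully methylated in both libraries, with 61 of 61 reads in SKNO-1 and 75 of 75 in SKNO1-siAE. At the 3′ end the direction turned. The 19 sites of exon 5 had mean levels of 0.404 in SKNO-1 and 0.940 in SKNO1-siAE, and 13 were called lower. On the minus strand of SKNO-1, 6 of these sites repeated 4 of 18 reads, so they too may share reads. A group of 13 of them, 3784 to 3874 bp past the start, had 88 of 297 reads methylated in SKNO-1 and 182 of 187 in SKNO1-siAE. The site with the smallest adjusted p, 3837 bp past the start, had 0 of 18 against 22 of 22 (adjusted p = 6.20e-10, exact test). The strands of SKNO-1 were unequal here, at 0.423 on the plus and 0.184 on the minus strand, and SKNO1-siAE had 0.952 and 0.981. In the same exon 1 site, 3758 bp past the start, was called in the other direction, with 11 of 11 reads against 2 of 7, while the minus strand of its CpG was called lower, with 4 of 18 against 16 of 16.

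CFD encodes complement factor D (adipsin), the protease that cleaves factor B in the alternative pathway. It is best known from fat tissue and is also made by myeloid cells. All of its 22 called sites were lower in SKNO-1, and 46 of its 134 sites were lower by 0.2 or more. The lower levels lay mainly in exons 4 and 5, and exons 1 to 3 and introns 2 and 3 had no shared site. The window had mean levels of 0.643 ± 0.382 in SKNO-1 and 0.842 ± 0.334 in SKNO1-siAE over 134 sites (SD over sites). The sequence shown is from coding exon 4, where SKNO1-siAE was fully methylated and SKNO-1 was not.
CFD exon 4, chr19:861732-861871: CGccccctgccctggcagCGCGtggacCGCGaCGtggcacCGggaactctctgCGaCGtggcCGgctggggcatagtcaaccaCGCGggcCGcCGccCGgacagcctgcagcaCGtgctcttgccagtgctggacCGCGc

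Its 18 sites held 48 of 108 methylated reads in SKNO-1 and 155 of 155 in SKNO1-siAE, and 5 were called lower. All were on the minus strand with 6 reads each in SKNO-1, of which 0, 2, 4 or 6 were methylated, so neighbouring sites repeat each other. Exon 5 was read more deeply, on both strands, at a median of 24 and 20 reads, and had 0.688 against 0.958 over 45 sites, 14 of them called lower. By contrast, the 16 shared sites of the first intron, which has 45 CpGs, were almost unmethylated in both libraries, with 6 of 206 and 7 of 194 reads. Upstream of the start 5 sites had a mean level of 0.160 against 0.447. It was most negative at the site 818 bp before the start, methylated in 0 of 14 reads in SKNO-1 and 20 of 26 in SKNO1-siAE (adjusted p = 6.12e-05, exact test). The 2 sites 334 and 269 bp before the start had no methylated read in either library. Past the end of the main transcript, 42 sites of a longer annotated transcript, which overlaps MED16 at its end, had 0.938 against 0.974.

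CTSG encodes cathepsin G, a serine protease of the azurophil granules, and lies on the minus strand of chromosome 14 at chr14:25042724-25045456 (hg19). All of its 8 called sites were higher in SKNO-1 and lay upstream of the start or in intron 1. The window had 0.861 ± 0.234 in SKNO-1 and 0.751 ± 0.381 in SKNO1-siAE over 47 sites (SD over sites). The sequence below, on the minus strand, holds the 4 CpGs upstream of the start that differed.
CTSG upstream, chr14:25046089-25046269: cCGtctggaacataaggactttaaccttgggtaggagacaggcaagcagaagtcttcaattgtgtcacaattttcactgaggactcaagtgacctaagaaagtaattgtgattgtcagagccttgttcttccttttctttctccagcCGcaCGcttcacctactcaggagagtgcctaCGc

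These CpGs lay 812 to 634 bp before the start and held 117 of 140 methylated reads in SKNO-1 and 39 of 130 in SKNO1-siAE. Both strands were higher in SKNO-1, with 0.810 against 0.313 and 0.933 against 0.249, and 6 of the 8 sites were called. Nearer to the start, 2 sites 222 and 170 bp upstream had no methylated read, of 25 in SKNO-1 and of 44 in SKNO1-siAE. In intron 1 a CpG 427 bp past the start was methylated in 37 of 59 reads against 0 of 42 on the minus strand (adjusted p = 2.37e-10, exact test) and in 13 of 20 against 0 of 35 on the plus strand. Both strands of this CpG were thus partly methylated in SKNO-1 and unmethylated in SKNO1-siAE. Exon 4 was almost fully methylated in both, with 259 of 261 reads and 169 of 171.

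MPO encodes myeloperoxidase, the heme enzyme of the azurophil granules that forms hypochlorous acid and is stained to identify myeloid blasts. It lies on the minus strand of chromosome 17 at chr17:56347216-56358296 (hg19). Exons 4, 6 and 7 and the shared sites of introns 3, 4, 5 and 7 were almost unmethylated in both libraries, and intron 6 had no shared site. Exon 6 had 5 of 570 methylated reads in SKNO-1 and 0 of 296 in SKNO1-siAE, and exon 7 had 3 of 536 and 16 of 926. The 3 upstream sites had no methylated read of 32 and of 25. In coding exon 1 a CpG 301 bp past the start was methylated in SKNO1-siAE alone, with 0 of 34 against 5 of 14 reads on the minus strand (adjusted p = 0.00952, exact test) and 0 of 23 against 5 of 17 on the plus strand, where it was not called.

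Exon 11 of MPO was highly methylated, at 0.711 ± 0.398 in SKNO-1 and 0.939 ± 0.203 in SKNO1-siAE over 27 sites (SD over sites), and 8 of the 10 called sites of the gene lay there, all lower in SKNO-1. The strands disagreed in this exon. At the CpG 9188 bp past the start the plus strand had 3 of 10 reads in SKNO-1 and 21 of 21 in SKNO1-siAE, and the minus strand 10 of 10 and 9 of 9. At the CpG at 9170 bp it was the minus strand that was lower, with 2 of 10 against 9 of 9, and the plus strand had 10 of 10 and 21 of 21. At the CpG 9106 bp past the start the minus strand had 0 of 10 reads in SKNO-1 and 9 of 9 in SKNO1-siAE, and the plus strand 7 of 10 and 0 of 6. The levels of SKNO-1 in this exon rest on 6 to 10 reads each.

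LYZ encodes lysozyme, which cuts the peptidoglycan of bacterial walls and is stored in several kinds of granule. It lies at chr12:69742161-69748014 (hg19) on the plus strand. It had few CpGs and 5 shared sites, so the data show 2 positions near the start and little else. The site 71 bp past the start, in coding exon 1, was methylated in 43 of 46 reads in SKNO-1 and 6 of 25 in SKNO1-siAE (adjusted p = 9.16e-08, exact test). The site at 200 bp, in intron 1, had 30 of 35 against 0 of 16 (adjusted p = 1.15e-07, exact test). Farther on, 3 sites of intron 1 were methylated in both, with mean levels of 0.922 in SKNO-1 and 0.952 in SKNO1-siAE. No shared site covered the 250 bp before the start, which contain no CpG.

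LTF encodes lactoferrin, the iron-binding protein of the secondary granules, on the minus strand of chromosome 3, with its window at chr3:46477136-46507895 (hg19). It had 0.908 ± 0.161 in SKNO-1 and 0.895 ± 0.233 in SKNO1-siAE over 77 sites (SD over sites). Its pooled levels differed by -0.00108 (interval -0.0279 to 0.0260). Unlike AZU1 and PRTN3, the DNA just before its start was methylated in both libraries. It is shown on the minus strand for that contrast.
LTF upstream, chr3:46506396-46506645: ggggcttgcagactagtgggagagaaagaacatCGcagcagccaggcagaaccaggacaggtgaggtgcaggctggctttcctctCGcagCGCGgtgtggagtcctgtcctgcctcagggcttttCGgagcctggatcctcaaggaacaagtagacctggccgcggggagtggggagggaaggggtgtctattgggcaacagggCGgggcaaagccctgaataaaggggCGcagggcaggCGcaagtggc

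The 16 sites of this sequence held 171 of 204 methylated reads in SKNO-1 and 175 of 240 in SKNO1-siAE. The CpG 45 bp before the start stood apart, with 11 of 20 against 0 of 14 on the plus strand (adjusted p = 0.00580, exact test). A site 469 bp before the start was also called higher, with 25 of 25 against 5 of 13. The 2 sites called lower were in intron 1, 1 of them with 37 of 54 reads against 34 of 34, and the intron had 625 of 701 methylated reads in SKNO-1 and 528 of 540 in SKNO1-siAE over 44 sites.

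CAMP encodes the precursor of LL-37, the human cathelicidin of the secondary granules, on the plus strand of chromosome 3 at chr3:48264837-48266981 (hg19). At most of its 23 sites the levels of the libraries lay close together. From 1102 to 817 bp before the start, SKNO-1 had 108 of 110 reads methylated and SKNO1-siAE 128 of 130. The 4 sites 264 to 231 bp before the start had no methylated read in either, and exon 1 was methylated again, with 47 of 52 and 88 of 100 reads. Between the high and the low stretch, the site 387 bp before the start had 11 of 11 reads in SKNO-1 and 0 of 7 in SKNO1-siAE (adjusted p = 0.000429, exact test). In intron 3 all 117 reads of SKNO1-siAE were methylated against 81 of 108 in SKNO-1, and 2 of its 7 sites were called lower.

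**Figure D3:**
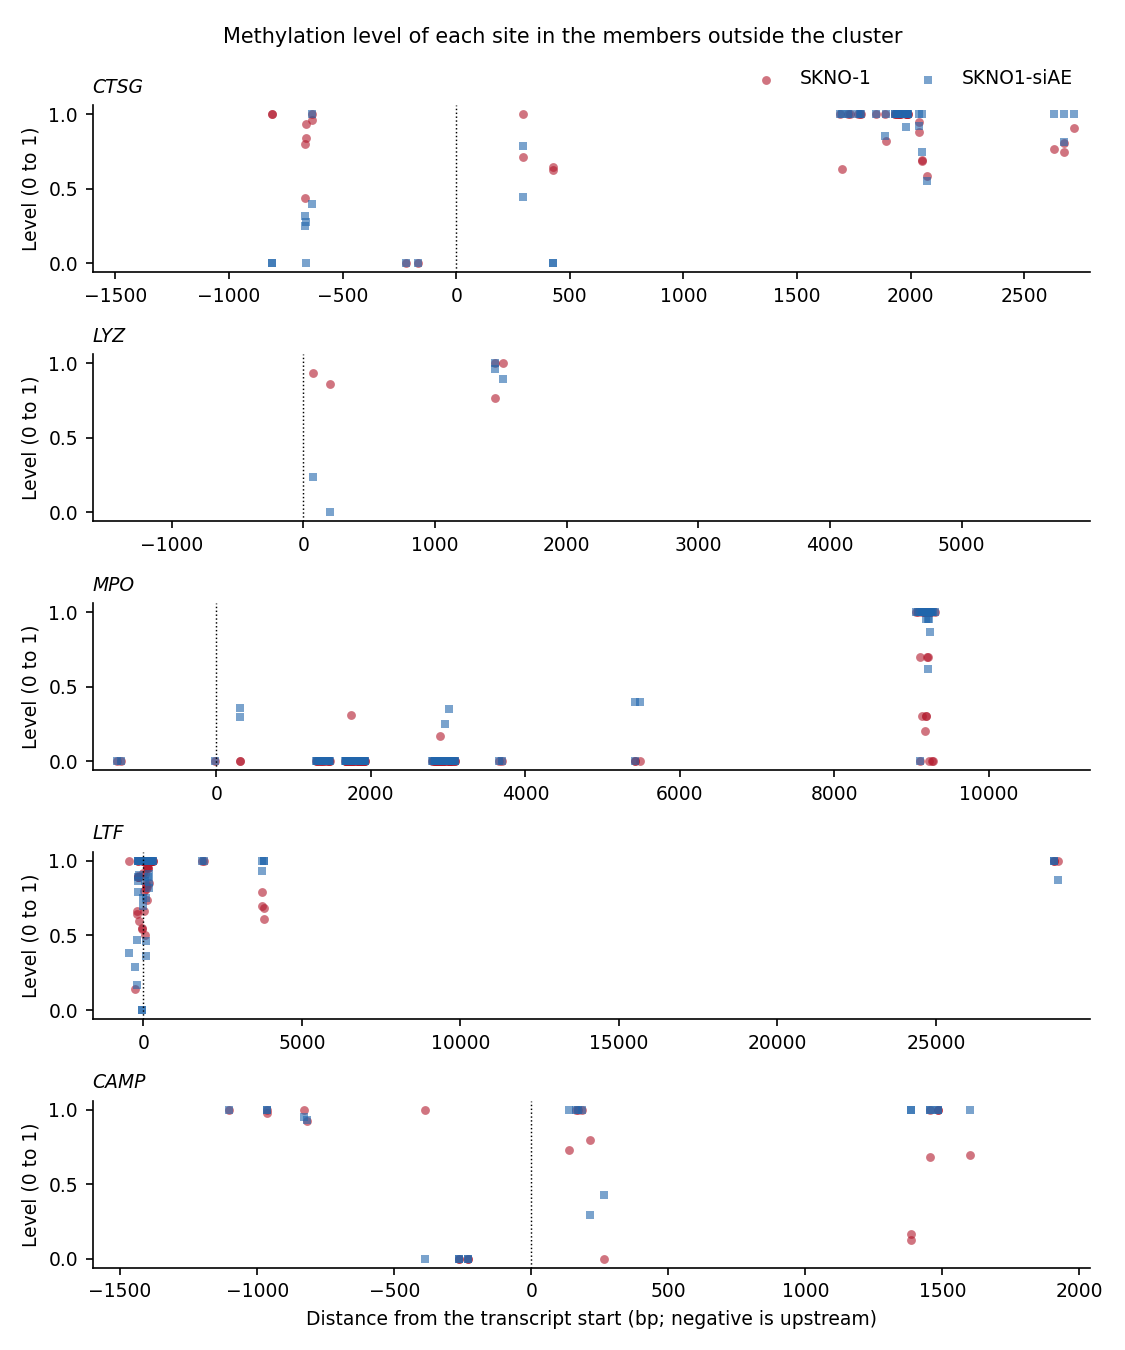
Level (0 to 1) of each shared site of the 5 granule genes outside the chromosome 19 stretch, against the distance from the transcript start in bp (dotted line, negative is upstream). Red circles are SKNO-1 and blue squares SKNO1-siAE. CTSG and LYZ differ near the start, MPO is near 0 at most sites before exon 11, LTF differs at single sites, and CAMP in intron 3 and at single sites.

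Runs were stretches of 5 or more sites with gaps of up to 300 bp in which a moving average of the difference over 5 sites reached 0.2 in 1 direction. They were found higher in SKNO-1 in 3 of the 9 genes (ELANE, PRTN3 and CTSG), against 28.0% of all windows. Runs lower in SKNO-1 were found in 4 (MPO, ELANE, PRTN3 and CFD), against 48.9%. Both shares are near those of all genes, so the presence of a run does not set the granule genes apart.

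The strands of a CpG gave the only measure of spread within a library. Over 989218 CpGs with both strands covered, the levels of the strands differed by a mean of 0.101 in SKNO-1 and 0.0905 in SKNO1-siAE, and the libraries differed by 0.167. In ELANE (13 CpGs) the strands differed by 0.387 in SKNO-1 and 0.145 in SKNO1-siAE and the libraries by 0.652. In PRTN3 (23 CpGs) the values were 0.227, 0.0399 and 0.296, in CTSG (17) 0.0654, 0.119 and 0.228, and in CFD (36) 0.166, 0.0738 and 0.228. In MPO (51) the strands of SKNO-1 differed by 0.111, more than the libraries did at 0.0764. The same held in AZU1 (6 CpGs), where the strands in SKNO-1 differed by 0.0641 and the libraries by 0.0321, and in LYZ (1 CpG), by 0.235 and 0.138. In LTF (34) the values were 0.0735, 0.0726 and 0.101, and in CAMP (6) 0.0638, 0 and 0.171. The libraries thus differed more than the strands in ELANE, PRTN3, CTSG, CFD, LTF and CAMP, and less than the strands of SKNO-1 in MPO, AZU1 and LYZ. The 1 CpG of LYZ lay in intron 1, 1456 bp past the start, and was not called. The 2 called sites of LYZ were shared on the plus strand only, so their spread between strands was not measured. Read depth also moved with position: relative to all shared sites, the log2 ratio of reads (SKNO-1 over SKNO1-siAE) ranged from -0.71 in AZU1 to 0.50 in LYZ, and its part in the levels was not tested.

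The letters TGTGGT, the core bound by RUNX proteins, were searched on both strands of the 250 bp before each start. They were found in 1 of the 9 genes, LYZ, 60 bp before the start on the minus strand, and in 1746 of 19818 protein-coding promoters (8.81%). These stretches were also poor in CpGs, with 0 in LYZ, 1 in CAMP, 2 in MPO, 3 in CTSG, 6 in PRTN3, 7 in AZU1, 10 in LTF and 11 in ELANE and CFD, against a median of 18 over all promoters.

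Another 20 genes of granule proteins and their handling gave the same measure, and all had 5 or more shared sites. Of these, 7 had a level 0.2 or more higher in SKNO-1 and 1 (MMP9, a secreted protease of the tertiary granules, at -0.202) was lower, against 1.79% and 11.7% of all windows. Their median difference was 0.00299. The largest differences were in CRISP3, a secondary granule protein, with 0.923 in SKNO-1 and 0.477 in SKNO1-siAE, in TCN1, the cobalamin-binding protein haptocorrin, with 0.868 and 0.452, and in PRG2, the major basic protein of eosinophils, with 0.769 and 0.384. The other 4 were RNASE3, OLFM4, RNASE2 and SRGN, with differences from 0.254 to 0.339. Of the 992 sites in the 20 genes, 115 (11.6%) were called higher, against 4.40% of all sites, and 97 (9.78%) lower, against 11.7%.

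The protein-coding genes next to the granule genes differed in both directions. Beside CTSG, CMA1 and GZMH, which encode the proteases chymase and granzyme H, were lower in SKNO-1, with differences of -0.271 and -0.260 over 9 sites each. Beside LYZ, CPSF6 and YEATS4 differed by 0.00525 and 0.00422, and beside MPO, LPO (lactoperoxidase) differed by -0.0843 and TSPOAP1 by 0.00184. With pooled reads in place of the mean over sites, CPSF6 gave 0.0231, YEATS4 0.134, LPO -0.0518 and TSPOAP1 0.116. CCRL2 next to LTF was lower by 0.2 or more, at -0.281, and RTP3 on its other side was at 0.0696. CAMP lay between CDC25A at 0.00903 and ZNF589 at -0.00844, and the chromosome 19 stretch between PLPPR3 at 0.0871 and R3HDM4 at -0.0102.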

How the data were processed

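MCC-Seq libraries of SKNO-1 and SKNO1-siAE (1 each) were analysed. The authors captured bisulfite-converted DNA with SeqCap Epi probes, sequenced it as paired reads, and aligned the trimmed reads to hg19; the submitters' processing notes name cutadapt 1.4.2 and BSMAP 2.73. The authors deposited raw counts of methylated and unmethylated reads per CpG cytosine and strand, without normalization, for positions with 5 or more reads. The authors took methylation calls from unique sequences, and whether this means removal of PCR duplicates or unique alignment is not given in the sources used here.

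Levels, mean differences (SKNO-1 minus SKNO1-siAE), Wilson and Newcombe 95% intervals, 2-sided Fisher's exact tests with the Benjamini-Hochberg method applied across the 3168726 shared sites, and runs were computed in python 3.11.15 with pandas 2.3.3, numba 0.67.0, scipy 1.17.1 and numpy 2.4.6. A difference of 0.2 was the limit for sites, windows and runs. Figures were drawn with matplotlib 3.10.9, and sequences were read from GRCh37 with pysam 0.24.0. Genes came from GENCODE release 44 lifted to GRCh37, with the canonical transcript start. Of the 345253 chromosome 19 positions, all were CpG cytosines of that assembly. Metilene, which the authors used for regions, was not used.

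The members and lists were chosen with earlier results of these data known. Sites named in the text were the called sites with the smallest adjusted p (up to 5 per gene) and the site with the largest difference in each direction; other sites and parts were named after their values were seen. Of the 20 other granule genes, the 3 with the largest differences were to be named, and 5 more were named after their values were seen. The nearest protein-coding gene on each side of each locus was also named. The alternatives were a minimum of 10 reads, pooling of the reads in a window, merging of the strands of a CpG, each library with all of its own sites, other ends of the window, and other limits for calls and runs.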

Additional observations from a re-analysis of the deposited data

Results flagged for a closer look

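Sites with 5 or more reads in 1 library alone were not part of the comparisons, and methylated reads were found at them in all 9 granule genes. The values below are shares of pooled reads, and the sites of the libraries are different positions, so they are not compared. CTSG had 94.7% methylated reads at its 17 sites covered in SKNO-1 alone (interval 90.7 to 97.0%) and 10.7% at its 6 sites covered in SKNO1-siAE alone (5.74 to 19.1%). ELANE had 88.5% at 40 sites and 31.9% at 101 sites, in the same order. AZU1 had 72.9% at 17 sites (65.4 to 79.3%) and 7.07% at 25 sites (4.26 to 11.5%), so methylated sites exist in this gene outside the 13 shared ones. PRTN3 had 39.0% at 45 sites and 33.9% at 51 sites. CFD had 34.6% at 46 sites and 82.6% at 93 sites. MPO had 35.6% at 21 sites covered in SKNO1-siAE alone and no methylated read of 293 at 29 sites covered in SKNO-1 alone, which allows up to 1.02%. LTF had 80.9% at 28 sites and 100% at 10 sites, and CAMP 71.4% at 6 sites and 80.4% at 11 sites. LYZ had 100% at its 1 site covered in SKNO-1 alone, from 13 reads, and no methylated read of 8 at its 1 site covered in SKNO1-siAE alone, which allows up to 37.5%.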

How the results depend on the processing

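Of 131 values recomputed under the alternatives, 91 stayed within their interval or within 1.5 times the count, 40 moved, and no gene difference that was 0.2 or more in the values reported changed its sign. With at least 10 reads per site the window difference was -0.442 in ELANE (17 sites left), 0.211 in PRTN3, 0.219 in CTSG and -0.149 in CFD. The upstream difference was then 0.156 in PRTN3, 0.223 in LTF and 0.00261 in CAMP, 1 window and 0 upstream intervals were lower by 0.2, 18 sites were called higher and 35 lower, and 3 runs were higher and 4 lower. The upstream interval of CFD was still at -0.242 but kept 4 sites, under the minimum of 5. With pooled reads the windows gave -0.0593 in ELANE, 0.302 in PRTN3, 0.254 in CTSG and -0.167 in CFD, the upstream interval of CAMP gave -0.0489, and 2 of the other granule genes were lower. With merged strands ELANE gave 0.250 and LYZ 0.410, with 1 window and 0 upstream intervals lower. The upstream interval of CFD, at -0.215 over 4 CpGs, was again left out of the count. The LYZ window, also with 4 CpGs, was left out of the count of higher windows. With the own sites of each library the windows gave -0.103 in MPO, 0.384 in ELANE, 0.308 in PRTN3, 0.329 in AZU1, 0.190 in CTSG, 0.410 in LYZ, -0.0265 in LTF and -0.235 in CFD. The upstream intervals then gave 0.330 in AZU1 and -0.0563 in CFD, 4 windows were higher and 1 lower, and 0 upstream intervals were lower. Ending the windows with the canonical transcript, an alternative chosen after seeing the data, gave -0.272 in CFD and 1 window lower. Bonferroni adjustment left 3 sites higher and 2 lower, and a limit of 0.3 left 4 runs lower. The cause of these changes was not tested. ELANE holds blocks of opposite direction and unequal depth. Across these settings the window of ELANE has no stable sign, and no upstream site of ELANE had 10 reads in both libraries. Depth limits single sites: of the 169 sites with at most 10 reads in both libraries, 34 were called, and the smallest difference called was 0.778. No paired analysis was possible because each line has 1 library.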
